A study of Mus musculus with 7 samples.

Results

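The transcripts described here are 35 genes of macrophages and of antigen presentation on MHC class II in mouse pancreatic islets. They were taken as a list of symbols chosen with earlier results of these data known, and all 35 were found among the 51912 genes of the count table. Messenger RNA was sequenced from islets of 7 db/db mice, which lack a working leptin receptor and become obese and diabetic. All mice had received an adeno-associated virus (AAV), which encoded green fluorescent protein in the AAV-GFP group (4 mice) and adipsin in the AAV-Adipsin group (3 mice). Adipsin, the product of Cfd, is a protease of the alternative complement pathway that fat cells secrete. Islets were taken 4 weeks after the vector and kept in culture for 12 hours before RNA was extracted, and each mouse gave 1 library. The design holds no other genotype and no group without a vector. The sources used here do not give the age, sex and strain background of the mice or the promoter of the vector. The comparison asks which islet transcripts differ when systemic adipsin is raised at a time when blood glucose was similar in both groups.

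Macrophages are the main leukocytes that live inside healthy islets, where they lie against blood vessels and beta cells. They depend on the receptor Csf1r and on the transcription factor PU.1 (Spi1), take up material through scavenger and Fc receptors, and digest it with lysosomal proteases. Some of the resulting peptides are loaded on MHC class II molecules, which are built from the chains H2-Aa and H2-Ab1 or a chain pair that includes H2-Eb1, are guided by the invariant chain Cd74, and are shown to CD4 T cells. Islet macrophages of obese mice are known to accumulate and to carry markers of inflammation.

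The promoters below are marked for short matches to 2 kinds of control element, and whether a match is a working site was not tested. They are printed for MHC class II genes, whose fitted differences were near 0, and for Fcgr1 and Itgam. The fold changes of the latter were the largest among the tested genes of the list with all libraries. The promoters were read as follows. Each is the stretch of 250 bases before the RefSeq start site (GRCm38.p6), read 5′ to 3′ on the gene's strand. Capitals mark ATTGG or its reverse complement CCAAT, the core of the Y box of MHC class II promoters, and GAGGAAG or its reverse complement CTTCCTC, a core of PU.1 elements.
H2-Aa, chr17:34287824-34288073, minus strand: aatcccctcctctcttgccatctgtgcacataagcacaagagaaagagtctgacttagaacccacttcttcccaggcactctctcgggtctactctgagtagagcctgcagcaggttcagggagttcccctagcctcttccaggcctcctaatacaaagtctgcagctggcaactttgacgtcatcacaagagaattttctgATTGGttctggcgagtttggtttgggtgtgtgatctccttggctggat
H2-Eb1, chr17:34305617-34305866, plus strand: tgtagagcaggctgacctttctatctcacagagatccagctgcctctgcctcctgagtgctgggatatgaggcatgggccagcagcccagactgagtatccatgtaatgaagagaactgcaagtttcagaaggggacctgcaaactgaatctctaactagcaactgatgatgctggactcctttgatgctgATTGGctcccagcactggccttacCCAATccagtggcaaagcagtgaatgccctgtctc
Fcgr1, chr3:96293970-96294219, minus strand: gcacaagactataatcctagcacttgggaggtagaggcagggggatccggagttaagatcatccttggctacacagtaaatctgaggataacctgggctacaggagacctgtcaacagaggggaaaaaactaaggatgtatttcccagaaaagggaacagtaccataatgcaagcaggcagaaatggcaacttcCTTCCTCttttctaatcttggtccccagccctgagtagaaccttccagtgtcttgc
Itgam, chr7:128062390-128062639, plus strand: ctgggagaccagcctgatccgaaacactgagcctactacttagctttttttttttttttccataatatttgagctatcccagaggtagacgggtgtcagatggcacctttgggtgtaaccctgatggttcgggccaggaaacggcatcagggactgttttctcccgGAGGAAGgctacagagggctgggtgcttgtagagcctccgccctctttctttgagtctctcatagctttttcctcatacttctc
In H2-Aa the match to ATTGG began 48 bases before the start, and in H2-Eb1 matches lay 59 and 35 bases before it, the nearer one as CCAAT. The match to GAGGAAG lay 56 bases before the start of Fcgr1, on the other strand, and 84 bases before that of Itgam. Of the 35 genes, 26 had an entry in the promoter table. Of these 26, 13 held ATTGG and 7 held GAGGAAG on either strand in at least 1 entry, where 33.9% and 10.6% of all 32851 promoters held them. A match is a description of the sequence only.

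Library totals ran from 29601707 to 43997400 counts. Ins2, the main insulin gene, made up 11.05% to 13.8% of each library. Cfd had 3965, 839 and 1481 counts in AAV-Adipsin 1 to 3 and 1, 0, 0 and 0 in AAV-GFP 1 to 4, so no library went against its label. The description label of library 1 in each group is the treatment itself, while the other 5 libraries carry db and a number there. The former are called the treatment-named pair here and the latter the db-numbered libraries, and some genes given below follow this style of description more closely than the treatment. One further library stands apart for the genes described here: AAV-Adipsin 2, in which the 35 genes together took 0.0677% of all counts, against 0.0292% to 0.0443% in the other 6. Results are therefore given with and without it. Reads per gene in a whole islet sample do not tell more macrophages from more RNA per macrophage.

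No member passed the test between AAV-Adipsin and AAV-GFP. For 25 of the 33 tested genes, among them Lyz2, Ctss, Cd68, Itgam and Fcgr1, AAV-Adipsin 2 was at least 2 times the median of the other libraries, which 3.96% of all genes tested also showed, while the MHC class II chains, Cx3cr1, Itgax, Mrc1 and Csf2ra were below that ratio. Outside AAV-Adipsin 2 the fitted differences lay on both sides of 0. Fcgr1, which encodes a receptor for IgG, was the 1 gene of the list whose 3 AAV-Adipsin libraries all lay above the 4 AAV-GFP libraries. Over all genes tested, 1.16% showed this order and 1.58% the opposite one, so 1 of 33 is near the share over all genes.

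Of the 35 genes, 33 passed the filter on low counts. In edgeR's quasi-likelihood test, adjusted over all 16504 genes tested, 0 of the 33 passed the threshold of 0.05, where 0.00606% of all genes did (1 gene, Cfd), and the smallest adjusted p among the 33 was 1.00. At an unadjusted p under 0.05 there was 1 of the 33, Fcgr1, against 1.16% of all genes tested. DESeq2 called 0 as well, where 0.0102% of the genes it adjusted passed (3 genes), and 5 of the 33 were under 0.05 unadjusted, against 0.894% of all genes. The log2 fold change (AAV-Adipsin over AAV-GFP, so 1 is a doubling) was above 0 for 31 of the 33 genes, against 46.2% of all genes tested, and its median was 0.55, against -0.011 over all genes tested. Without AAV-Adipsin 2 it was above 0 for 13 of the 33, against 49.1% of all genes, and the median was -0.019. Among the db-numbered libraries, log2 CPM (CPM are counts per 1000000 of the library total scaled by its TMM factor) was higher in AAV-Adipsin for 32 of 33 genes, against 49.0% of all genes, with a median difference of 0.65. In the treatment-named pair it was higher for 23 of 33, against 49.7% of all genes, with a median difference of 0.088. The db-numbered AAV-Adipsin libraries are AAV-Adipsin 2 and AAV-Adipsin 3, and the count of 32 was not repeated without AAV-Adipsin 2.

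**Figure D1:**
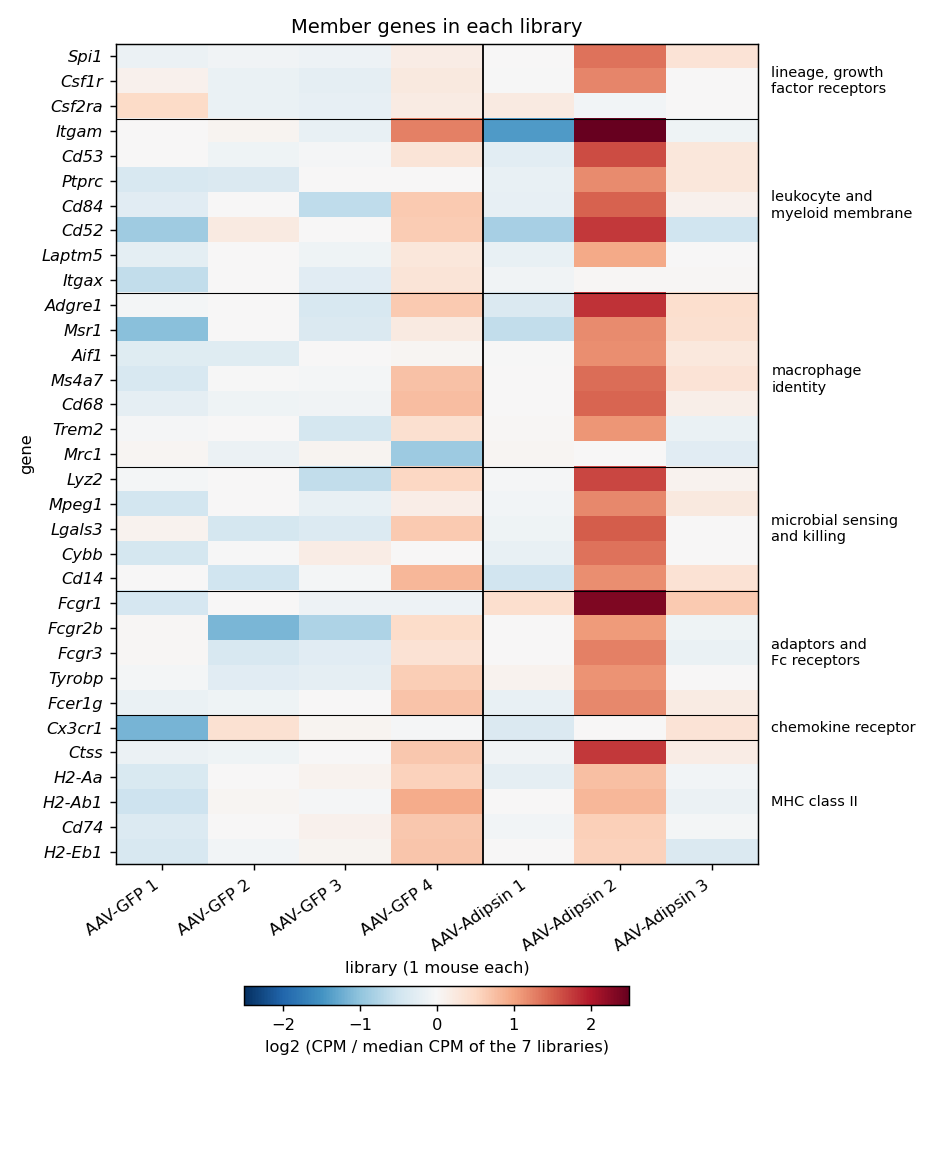
Heat map of the 33 tested genes (rows, by role) in the 7 libraries (columns), coloured by the log2 ratio of CPM to the gene's median over the 7 libraries. The column of AAV-Adipsin 2 is the highest for 26 of the 33 genes, and AAV-GFP 4 is the highest for Cd74, H2-Ab1, H2-Eb1 and Itgax.

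AAV-Adipsin 2 was the highest of the 7 libraries for 26 of the 33 tested genes, while it was the highest for 12.8% of all genes tested. It was at least 1.5 times the median of the other 6 libraries for 29 of the 33, against 8.15% of all genes, and the median ratio was 2.37 over the 33 genes and 0.991 over all genes. The 4 genes under 1.5 were Itgax (1.06), Mrc1 (1.032), Cx3cr1 (0.987) and Csf2ra (0.886). The ratios were highest for Itgam (7.68), Fcgr1 (5.28) and Cd52 (4.01), and lowest among the other 29 for H2-Eb1 (1.53) and Cd74 (1.54). These ratios describe 1 mouse. AAV-GFP 4 was the highest library for 4 of the 33 genes, against 25.1% of all genes. Where AAV-Adipsin 2 was the highest, AAV-GFP 4 could at most be next, so these shares are not alike. It was next for Cd68, Adgre1, Tyrobp, Fcer1g, Lyz2 and Ctss, but not for Msr1, Mpeg1 or Ptprc. Of the 3 AAV-Adipsin libraries, AAV-Adipsin 2 had the fewest Cfd counts.

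Spi1 encodes PU.1, which sets up the myeloid lineage. It had 1.62, 1.69, 1.64 and 2.03 CPM in AAV-GFP 1 to 4 and 1.79, 4.56 and 2.25 CPM in AAV-Adipsin 1 to 3, so AAV-Adipsin 2 lay above all others and the other 6 were close together. Its log2 fold change was 0.71 (SE 0.32, exact permutation p = 0.114) and 0.22 without AAV-Adipsin 2. Csf1r, the receptor for the growth factors Csf1 and Il34, had 8.51, 7.01, 6.78 and 9.38 CPM in AAV-GFP 1 to 4 and 7.80, 18.4 and 7.90 CPM in AAV-Adipsin 1 to 3. The groups overlapped, and the log2 fold change was 0.52 (SE 0.30) with all libraries and -0.0055 without AAV-Adipsin 2. Csf1r shares 873 bases of exon with Hmgxb3 on the opposite strand, and reads of the pair cannot be told apart with certainty because the strand setting of the counting is not known. Csf2ra, the alpha chain of the receptor for GM-CSF, did not share the pattern, with 36.2, 22.9, 22.4 and 29.9 CPM in AAV-GFP 1 to 4 and 29.98, 24.7 and 25.8 CPM in AAV-Adipsin 1 to 3. Its highest library was AAV-GFP 1 and its log2 fold change -0.055 (SE 0.17), with 0.0075 without AAV-Adipsin 2.

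Genes shared by leukocytes were highest in AAV-Adipsin 2, except Itgax, and differed in how close the other 6 libraries lay. Ptprc (CD45), a phosphatase on all white blood cells, had 2.16, 2.21, 2.86 and 2.83 CPM in AAV-GFP 1 to 4 and 2.49, 6.43 and 3.45 CPM in AAV-Adipsin 1 to 3. The 2 highest libraries were both AAV-Adipsin, but AAV-Adipsin 1 lay within the AAV-GFP range, and the log2 fold change was 0.71 (SE 0.31), with 0.25 without AAV-Adipsin 2. Itgam (CD11b), an integrin chain of myeloid cells, had 0.622, 0.649, 0.545 and 1.48 CPM in AAV-GFP 1 to 4 and 0.233, 4.60 and 0.575 CPM in AAV-Adipsin 1 to 3. Both the highest and the lowest library for Itgam were AAV-Adipsin, and its log2 fold change went from 1.12 (SE 0.90) to -0.996 without AAV-Adipsin 2. Itgam shares 3450 of its 5024 exon bases with Gm49368 on the same strand, which had 0 counts in all libraries, and whether the counting dropped reads of the shared bases was not tested. Itgax (CD11c), the integrin chain that marks many islet macrophages and dendritic cells, had 3.45, 5.26, 4.31 and 6.55 CPM in AAV-GFP 1 to 4 and 4.95, 5.39 and 5.38 CPM in AAV-Adipsin 1 to 3, with the 3 AAV-Adipsin libraries inside the AAV-GFP range. The tetraspanin Cd53 (0.72, SE 0.40), the lysosomal membrane protein Laptm5 (0.36, SE 0.26), the adhesion receptor Cd84 (0.65, SE 0.44) and the surface glycoprotein Cd52 (0.55, SE 0.64) had log2 fold changes of the same sign that went to -0.019, -0.061, -0.033 and -0.72 without AAV-Adipsin 2. Cd52 shares 172 bases of exon with Crybg2 on the opposite strand.

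**Figure D2:**
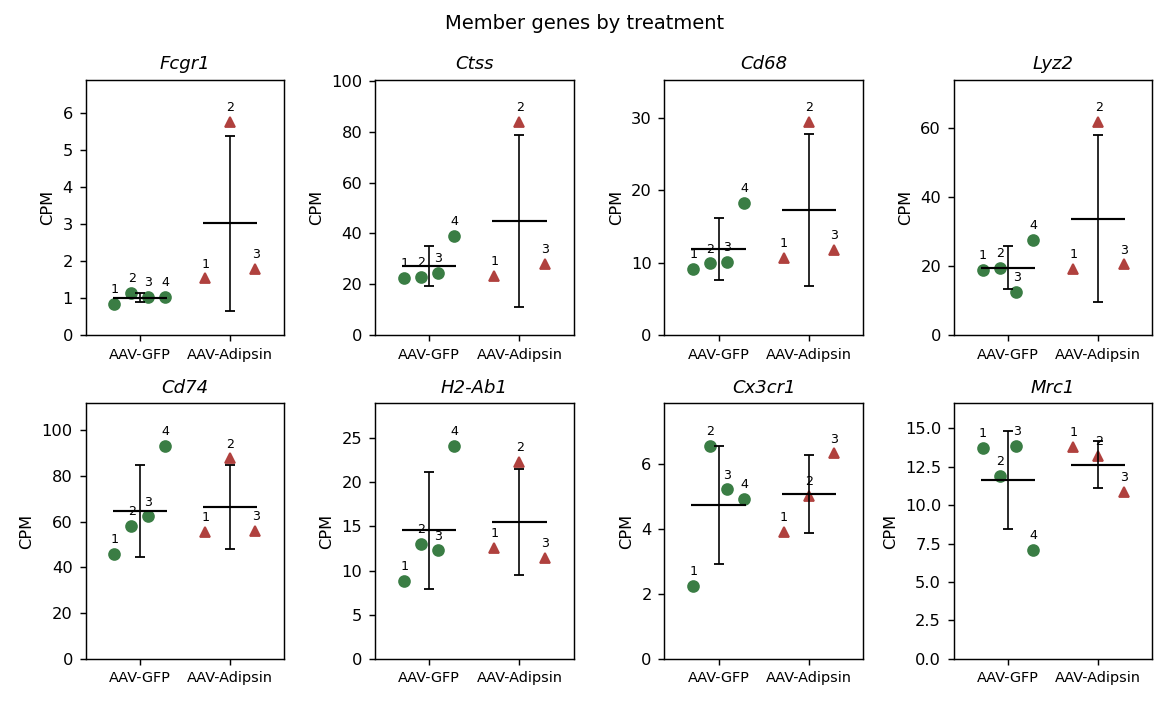
CPM of 8 member genes in each library, with AAV-GFP as circles and AAV-Adipsin as triangles numbered by replicate, the line at the group mean and the bar at ±1 SD. Only for Fcgr1 among these 8 do the groups not overlap, and in Cd74 and H2-Ab1 AAV-GFP 4 is the highest library.

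Among the genes of macrophage identity, Cd68, a glycoprotein of their lysosomes, had 9.14, 9.90, 10.1 and 18.2 CPM in AAV-GFP 1 to 4 and 10.7, 29.4 and 11.8 CPM in AAV-Adipsin 1 to 3. AAV-Adipsin 2 was highest and AAV-GFP 4 next, and the log2 fold change was 0.55 (SE 0.40) with all libraries against -0.066 without AAV-Adipsin 2. Adgre1, which encodes the F4/80 antigen, had 2.25, 2.34, 1.77 and 3.69 CPM in AAV-GFP 1 to 4 and 1.81, 8.21 and 3.13 CPM in AAV-Adipsin 1 to 3, again with AAV-Adipsin 2 highest and AAV-GFP 4 next. Its log2 fold change was 0.80 (SE 0.48), and -0.0095 without AAV-Adipsin 2. The scavenger receptor Msr1 had 2.65, 5.45, 4.26 and 6.38 CPM in AAV-GFP 1 to 4 and 3.58, 12.3 and 7.203 CPM in AAV-Adipsin 1 to 3. Here AAV-Adipsin 3 was the second highest library and the lowest 2 were the treatment-named pair, and the log2 fold change of 0.72 (SE 0.42) was 0.22 without AAV-Adipsin 2. The actin-binding protein Aif1, known as Iba1 (0.69, SE 0.31), the membrane protein Ms4a7 (0.58, SE 0.38) and the lipid receptor Trem2 (0.43, SE 0.34) gave 0.28, 0.060 and -0.063 without that library.

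Mrc1, the mannose receptor of tissue macrophages, stood apart from these, with 13.7, 11.9, 13.8 and 7.07 CPM in AAV-GFP 1 to 4 and 13.8, 13.2 and 10.9 CPM in AAV-Adipsin 1 to 3. It was lowest in AAV-GFP 4, a library in which Cd68 was high, and AAV-Adipsin 2 was within the range of the others. Its log2 fold change was 0.11 (SE 0.22). Cd163, a haemoglobin scavenger receptor of perivascular and connective tissue macrophages, was near the limit of detection, with 1 count over the 4 AAV-GFP libraries and 11 over the 3 AAV-Adipsin libraries. It had no count in 4 of the 7 libraries and was not tested, and a count of 0 allows up to 3 counts, or 0.0777 to 0.103 CPM in these 4 libraries.

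Of the chemokine receptors, Cx3cr1, which binds fractalkine, had 2.25, 6.56, 5.22 and 4.93 CPM in AAV-GFP 1 to 4 and 3.91, 5.01 and 6.33 CPM in AAV-Adipsin 1 to 3. Its lowest libraries were the treatment-named pair and AAV-Adipsin 2 was in the middle, and the log2 fold change was 0.11 (SE 0.33). Ccr2, the receptor that brings monocytes out of the blood, had 27 counts over all 7 libraries, 17 of which were in AAV-Adipsin 2, and was not tested.

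Genes for microbial sensing and killing spanned a wide range of levels, from Lyz2 down to Cybb. Lyz2, the lysozyme of macrophages, had 18.8, 19.3, 12.6 and 27.6 CPM in AAV-GFP 1 to 4 and 19.0, 61.6 and 20.5 CPM in AAV-Adipsin 1 to 3, so AAV-Adipsin 2 was far above AAV-GFP 4, the next highest. Its log2 fold change was 0.78 (SE 0.46), and 0.022 without AAV-Adipsin 2. Lyz2 has a near copy, Lyz1, with which the counting could share reads. Mpeg1, a pore-forming protein of phagosomes, had 21.7, 29.7, 26.2 and 33.2 CPM in AAV-GFP 1 to 4 and 28.3, 67.9 and 35.02 CPM in AAV-Adipsin 1 to 3. AAV-Adipsin 2 and AAV-Adipsin 3 were its 2 highest libraries and AAV-Adipsin 1 lay within the AAV-GFP range, with a log2 fold change of 0.66 (SE 0.29), an exact permutation p of 0.171 and a value of 0.20 without AAV-Adipsin 2. Lgals3, the lectin galectin-3, had 20.1, 14.0, 15.0 and 30.04 CPM in AAV-GFP 1 to 4 and 17.6, 54.6 and 19.1 CPM in AAV-Adipsin 1 to 3, and its log2 fold change of 0.62 (SE 0.46) went to -0.10 without AAV-Adipsin 2. The oxidase subunit Cybb (0.61, SE 0.37) and the lipopolysaccharide co-receptor Cd14 (0.34, SE 0.41) went to -0.025 and -0.14.

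Fcgr1 (CD64), the receptor with high affinity for IgG, lies at chr3:96282909-96293969 of GRCm38 on the minus strand. It had 0.845, 1.14, 1.04 and 1.034 CPM in AAV-GFP 1 to 4 and 1.53, 5.74 and 1.78 CPM in AAV-Adipsin 1 to 3. All AAV-Adipsin libraries lay above all AAV-GFP libraries, which 1.16% of all genes tested also showed, while 0 of the 33 showed the opposite order, against 1.58% of all genes. The group means were 1.01 ± 0.122 CPM in AAV-GFP (SD, n = 4) and 3.01 ± 2.36 CPM in AAV-Adipsin (SD, n = 3), and the exact two-sided permutation p was 0.0571, the smallest that 7 libraries in groups of 3 and 4 can give. Its fold change on the log2 scale was 1.57 (SE 0.45), for an unadjusted p of 0.00733 and an adjusted p of 1.00 in edgeR. Without AAV-Adipsin 2 it was 0.71, and its log2 CPM differed by 0.82 between the treatments in the treatment-named pair and by 1.53 in the db-numbered libraries. Its level was low, at 30 to 181 counts in a library, so counting error adds to its spread.

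The other Fc receptors and the signalling adaptors did not separate the groups. Tyrobp (DAP12) and Fcer1g carry the signal of Trem2, Fcgr1 and other receptors through their ITAM motifs. Tyrobp had 4.71, 3.99, 4.16 and 7.48 CPM in AAV-GFP 1 to 4 and 5.16, 10.6 and 4.85 CPM in AAV-Adipsin 1 to 3, and Fcer1g had 4.07, 4.25, 4.57 and 7.45 CPM in AAV-GFP 1 to 4 and 4.02, 10.5 and 5.28 CPM in AAV-Adipsin 1 to 3. In both, AAV-Adipsin 2 was highest and AAV-GFP 4 next, and the log2 fold changes of 0.43 (SE 0.33) and 0.37 (SE 0.35) went to -0.014 and -0.12 without AAV-Adipsin 2. Fcgr3, an activating IgG receptor, was at 0.55 (SE 0.36) and Fcgr2b, the inhibitory one, at 0.64 (SE 0.43), with -0.030 and 0.17 without that library. These 2 receptors are alike in sequence, so their reads could be divided between them.

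**Figure D3:**
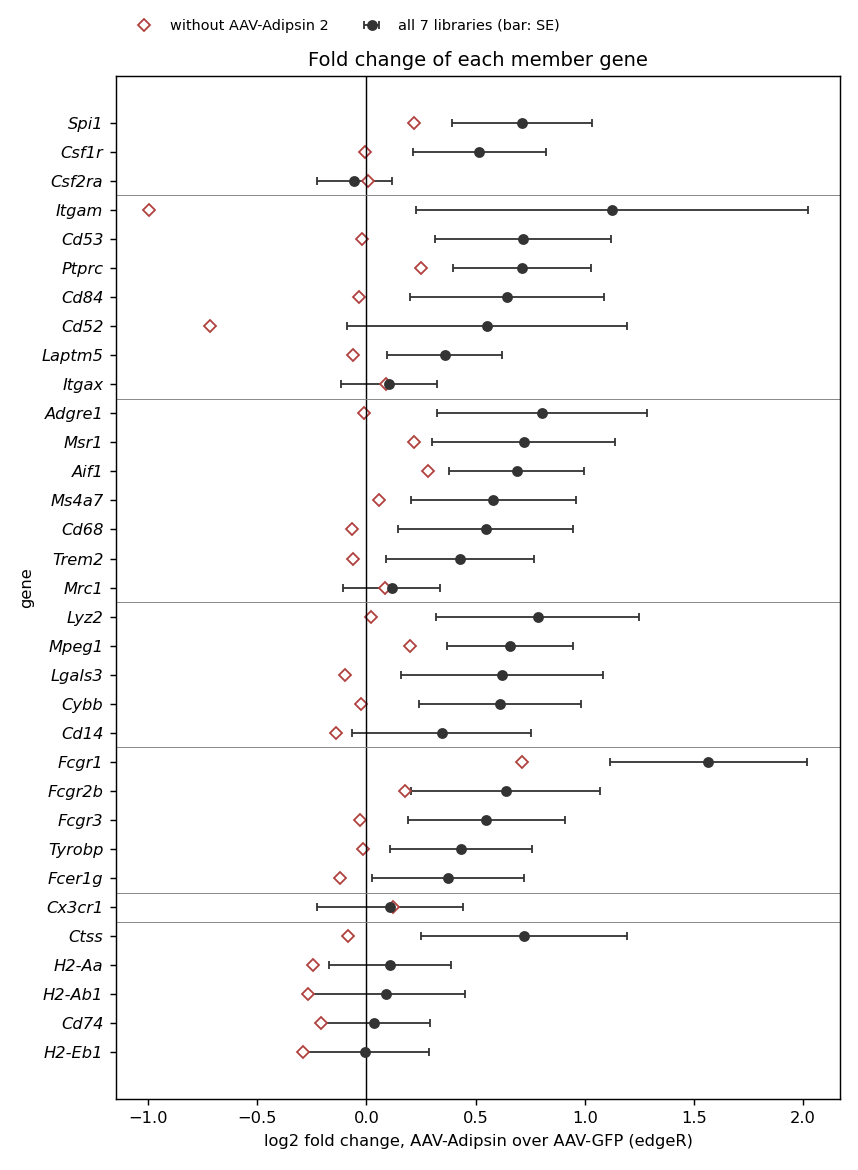
Log2 fold change of the 33 tested genes by role, with all 7 libraries (filled points, bars are ±1 SE) and without AAV-Adipsin 2 (open diamonds). The median moves from 0.55 to -0.019, and Fcgr1 is the gene farthest above 0 in both fits.

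The fitted differences of the invariant chain and the MHC class II chains lay near 0. Cd74, the invariant chain, had 45.7, 58.1, 62.3 and 93.1 CPM in AAV-GFP 1 to 4 and 55.6, 87.6 and 56.0 CPM in AAV-Adipsin 1 to 3. AAV-GFP 4 was its highest library and AAV-Adipsin 2 the next, so each group held 1 high library, and the group means were 64.8 ± 20.1 CPM in AAV-GFP (SD, n = 4) and 66.4 ± 18.4 CPM in AAV-Adipsin (SD, n = 3). H2-Aa, an alpha chain, had 13.6, 17.7, 18.9 and 26.2 CPM in AAV-GFP 1 to 4 and 15.2, 29.7 and 16.8 CPM in AAV-Adipsin 1 to 3. H2-Ab1, its beta chain, had 8.80, 13.0, 12.3 and 24.1 CPM in AAV-GFP 1 to 4 and 12.6, 22.3 and 11.4 CPM in AAV-Adipsin 1 to 3. H2-Eb1, the other beta chain, had 9.14, 11.6, 12.7 and 19.7 CPM in AAV-GFP 1 to 4 and 12.1, 18.1 and 9.43 CPM in AAV-Adipsin 1 to 3. For all 4 genes AAV-GFP 4 and AAV-Adipsin 2 were the 2 highest libraries and AAV-GFP 1 the lowest. The log2 fold changes were 0.036 (SE 0.25) for Cd74, 0.11 (SE 0.28) for H2-Aa, 0.088 (SE 0.36) for H2-Ab1 and -0.0069 (SE 0.29) for H2-Eb1, and the exact permutation p ran from 0.857 to 0.971. Without AAV-Adipsin 2 they were -0.21, -0.25, -0.27 and -0.29. Cathepsin S (Ctss), the protease that trims the invariant chain, followed Cd68 instead, with 22.4, 22.8, 24.6 and 39.1 CPM in AAV-GFP 1 to 4 and 23.2, 83.7 and 27.9 CPM in AAV-Adipsin 1 to 3. Its log2 fold change was 0.72 (SE 0.47), and -0.084 without AAV-Adipsin 2. The genes H2-Ab1, H2-Aa and H2-Eb1 lie, in that order, at chr17:34257689-34269419, chr17:34282744-34287823 and chr17:34305867-34316674 of GRCm38. MHC class II genes vary in sequence between mouse strains, and how well the reads of these mice aligned to the reference was not tested.

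The ratio of genes within a library shows how AAV-Adipsin 2 and AAV-GFP 4 differ, and was taken after the values were seen. The CPM of Cd74 divided by that of Cd68 was 5.005, 5.87, 6.18 and 5.10 in AAV-GFP 1 to 4 and 5.20, 2.98 and 4.76 in AAV-Adipsin 1 to 3, lowest in AAV-Adipsin 2. H2-Ab1 over Cd68 was 0.964, 1.31, 1.22 and 1.32 in AAV-GFP 1 to 4 and 1.18, 0.761 and 0.968 in AAV-Adipsin 1 to 3, and Itgax over Cd68 was 0.377, 0.531, 0.428 and 0.359 in AAV-GFP 1 to 4 and 0.464, 0.183 and 0.456 in AAV-Adipsin 1 to 3, both again lowest in AAV-Adipsin 2. For Cx3cr1 over Cd68 the values were 0.246, 0.662, 0.518 and 0.270 in AAV-GFP 1 to 4 and 0.366, 0.170 and 0.537 in AAV-Adipsin 1 to 3. In AAV-GFP 4 the ratio of Cd74 to Cd68 was within the range of the other AAV-GFP libraries, so there both genes were high together. Mrc1 over Cd68 was 1.499, 1.203, 1.37 and 0.388 in AAV-GFP 1 to 4 and 1.29, 0.450 and 0.924 in AAV-Adipsin 1 to 3, lowest in AAV-GFP 4 and next in AAV-Adipsin 2. Tyrobp over Cd68 was also lowest in AAV-Adipsin 2, at 0.360 against 0.403 to 0.516 in the other 6 libraries, although its own level was highest there. Lyz2 over Cd68 was 2.10 in AAV-Adipsin 2 and 1.25 to 2.06 in the others. By contrast Ctss over Cd68 stayed between 2.14 and 2.45 in the other 6 libraries and was 2.85 in AAV-Adipsin 2.

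Levels were compared between genes per kilobase of exon. Cd74 led, at a mean of 39.0 CPM per kb (27.2 to 55.5) over the 7 libraries, followed by Ctss at 25.6 CPM per kb (16.5 to 61.7) and Lyz2 at 19.5 CPM per kb (9.57 to 46.8). The ranges of these 3 overlapped, as did those of Lgals3 at 13.1 CPM per kb (7.53 to 29.4) and Cd68 at 11.3 CPM per kb (7.27 to 23.4). Csf2ra (9.55), Tyrobp (8.77), Mpeg1 (7.98), H2-Eb1 (6.81), Fcer1g (6.55), H2-Ab1 (5.82) and H2-Aa (5.19) came next, and neighbours in this order did not differ beyond their spread. Mean levels per kb were 1.89 for Mrc1, 1.63 for Csf1r, 1.08 for Cx3cr1, 1.05 for Itgax and 1.02 for Adgre1. Itgam (0.248) and Ptprc (0.175) were the lowest of the tested genes, and Ccr2 (0.0173) and Cd163 (0.00883) were lower still.

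**Figure D4:**
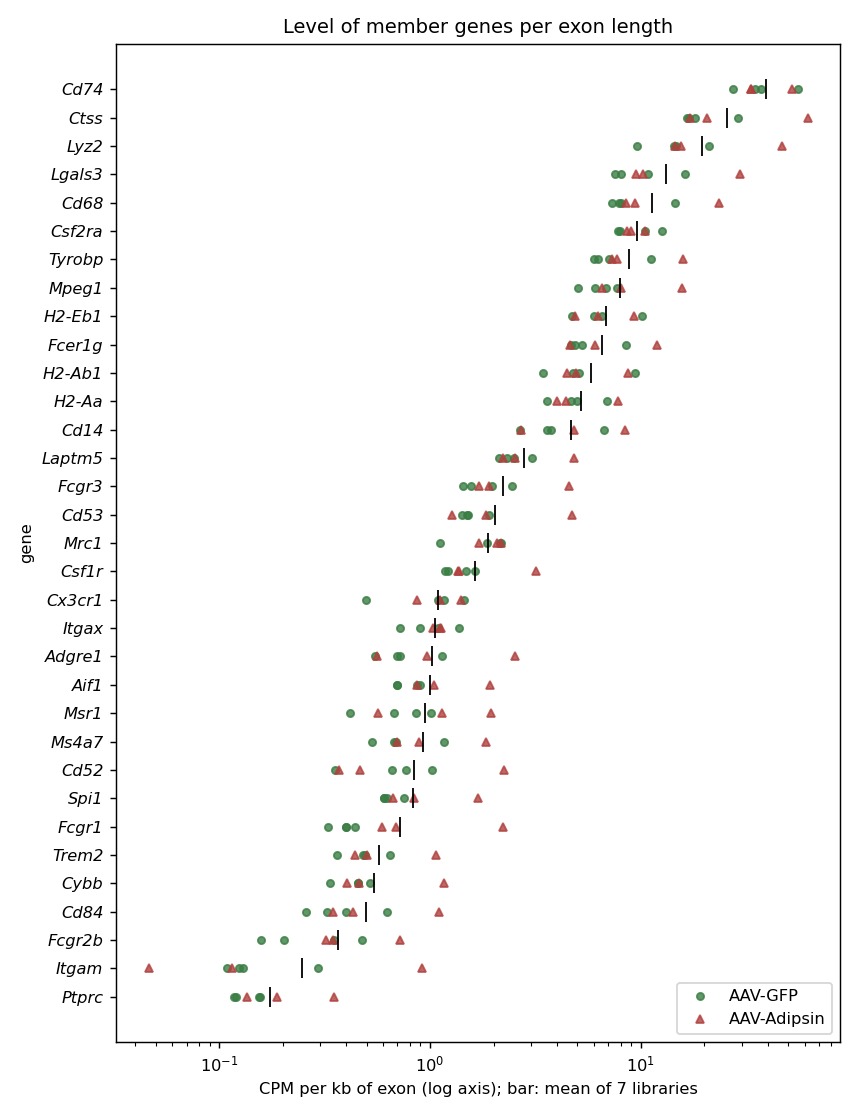
CPM per kb of exon on a log axis for the 33 tested genes in each library (AAV-GFP circles, AAV-Adipsin triangles), ordered by the mean (black bar). Cd74 has the highest mean at 39.0 and Ptprc, which has the longest merged exons, the lowest at 0.175. The triangle of AAV-Adipsin 2 lies to the right for most genes.

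The rest of the MHC class II machinery was read from a list of 18 genes, of which 11 were tested, 0 passed in either direction in edgeR (0 at an unadjusted p under 0.05, against 0 called and 0 unadjusted in DESeq2). Of the 11, 6 had a log2 fold change above 0, against 46.2% of all genes tested, with a median of 0.12. Without AAV-Adipsin 2, 7 of 11 were above 0, against 49.1% of all genes, with a median of 0.043 for this list. Its most abundant members per kb were the lysosomal enzymes Ctsl (-0.041, SE 0.12), Ifi30 (-0.027, SE 0.19) and Lgmn (0.25, SE 0.18). The smallest p values belonged to the costimulatory ligand Cd86 (0.58, SE 0.37), Lgmn, the peptide-exchange chain H2-DMb1 (0.61, SE 0.47), the ubiquitin ligase March1 (0.41, SE 0.39) and the costimulatory receptor Cd40 (0.30, SE 0.44). Ciita, the factor that switches on MHC class II genes, was low, at 0.104 to 0.285 CPM, and was not tested. The alpha chain partner of H2-Eb1 is annotated in the reference as a pseudogene, H2-Ea-ps, and had 0 counts in all 7 libraries, which allows up to 0.103 CPM in the smallest library.

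A further list of 47 macrophage genes had 39 tested, of which 0 passed in either direction in edgeR (1 at an unadjusted p under 0.05, against 0 called and 4 unadjusted in DESeq2). A log2 fold change above 0 was found for 35, with a median of 0.34, and without AAV-Adipsin 2, 18 of 39 were above 0 with a median of -0.013. Over all genes tested, 46.2% were above 0, and 49.1% without AAV-Adipsin 2. An unadjusted p under 0.05 was found for 1.16% of all genes in edgeR and 0.894% in DESeq2. AAV-Adipsin 2 was the highest library for 30 of the 39, against 12.8% of all genes tested. Among the smallest p values were those of the lipase Lpl (0.40, SE 0.15), the transcription factor Sall1 (0.66, SE 0.31), the metal transporter Slc11a1 (0.83, SE 0.41) and the RNA sensor Tlr7 (0.91, SE 0.47). Spp1 (0.46, SE 0.43), Apoe (0.34, SE 0.22) and the complement chain C1qa (0.031, SE 0.12) were the most abundant per kb, and other islet cells are known to express some of these. Gpnmb, a glycoprotein of lipid-laden macrophages that was singled out after its values were seen, had 16.4, 9.51, 5.97 and 12.6 CPM in AAV-GFP 1 to 4 and 11.6, 63.1 and 7.85 CPM in AAV-Adipsin 1 to 3. AAV-Adipsin 2 was its highest library by far, and its log2 fold change of 1.30 (SE 0.77) went to -0.19 without that library.

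Some cytokines and growth factors differed more between the styles of description than between the treatments. Csf1, the ligand of Csf1r, had 14.1, 99.8, 72.3 and 94.6 CPM in AAV-GFP 1 to 4 and 15.8, 95.7 and 81.8 CPM in AAV-Adipsin 1 to 3, so both treatment-named libraries were far below all 5 others, and its log2 fold change between treatments was -0.12 (SE 0.80). The monocyte attractant Ccl2 had 1.09, 7.53, 5.04 and 16.1 CPM in AAV-GFP 1 to 4 and 1.19, 14.0 and 11.3 CPM in AAV-Adipsin 1 to 3, with the same 2 libraries lowest and a log2 fold change of 0.26 (SE 1.01). Nos2, the inducible nitric oxide synthase, had 0.222, 29.2, 21.3 and 30.6 CPM in AAV-GFP 1 to 4 and 0.104, 34.9 and 34.0 CPM in AAV-Adipsin 1 to 3, with the same pair near 0 and all 5 others at 21.3 CPM or more. Among the 5 db-numbered libraries, both AAV-Adipsin libraries lay above the 3 AAV-GFP libraries for Nos2 and for Cd40. Other genes shared this order, among them Fcgr1, Msr1, Mpeg1, Ptprc, Spi1, Aif1, Csf3 and Il1a. The share of all genes that show it was not taken, so the order is not read as a treatment difference. AAV-Adipsin 2, the highest library for most tested members, is among the libraries compared. Of the 10 growth factors and chemoattractants 9 were tested, 0 passed in either direction in edgeR (0 at an unadjusted p under 0.05, against 0 called and 0 unadjusted in DESeq2), the median log2 fold change was 0.26 with 7 of 9 above 0, and without AAV-Adipsin 2, 3 of 9 were above 0 with a median of -0.22. Of this list Csf3 (0.89, SE 0.88), Ccl7 (0.67, SE 1.00), Cxcl12 (0.37, SE 0.61), Flt3l (-0.10, SE 0.21), Tgfb1 (0.0025, SE 0.38) and Il34 (0.38, SE 0.25), the other ligand of Csf1r, were also read. Among the 15 cytokines and enzymes 10 were tested, 0 passed in either direction in edgeR (1 at an unadjusted p under 0.05, against 0 called and 0 unadjusted in DESeq2), the median was 0.19 with 10 of 10 above 0, and without AAV-Adipsin 2, 4 of 10 were above 0 with a median of -0.13. There Il1a (0.86, SE 0.37), Cxcl2 (1.198, SE 0.76), Arg1 (0.30, SE 0.22), Igf1 (0.19, SE 0.45) and Pdgfb (0.16, SE 0.26) were named by p or level. For comparison with both lists, 46.2% of all genes tested were above 0, and 49.1% without AAV-Adipsin 2. In edgeR 1.16% of all genes had an unadjusted p under 0.05.

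Most of the 33 tested genes were also lower in the treatment-named pair. Mean log2 CPM was lower there for 30 of the 33 tested genes, against 49.5% of all genes tested, with a median difference of -0.53, against 0.0035 over all genes. Csf2ra, Mrc1 and Fcgr2b were the exceptions. AAV-Adipsin 2 is one of the db-numbered libraries, and without it 26 of the 33 were lower, against 49.2% of all genes, with a median difference of -0.29. Csf1r and Fcgr3 were among those whose direction turned. With description style as a batch in edgeR, 0 of the 33 passed after adjustment and 6 had an unadjusted p under 0.05, against 2.78% of all genes. These were Fcgr1, Msr1, Mpeg1, Ptprc, Aif1 and Spi1. This fit held AAV-Adipsin 2 and was not repeated without it.

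**Figure D5:**
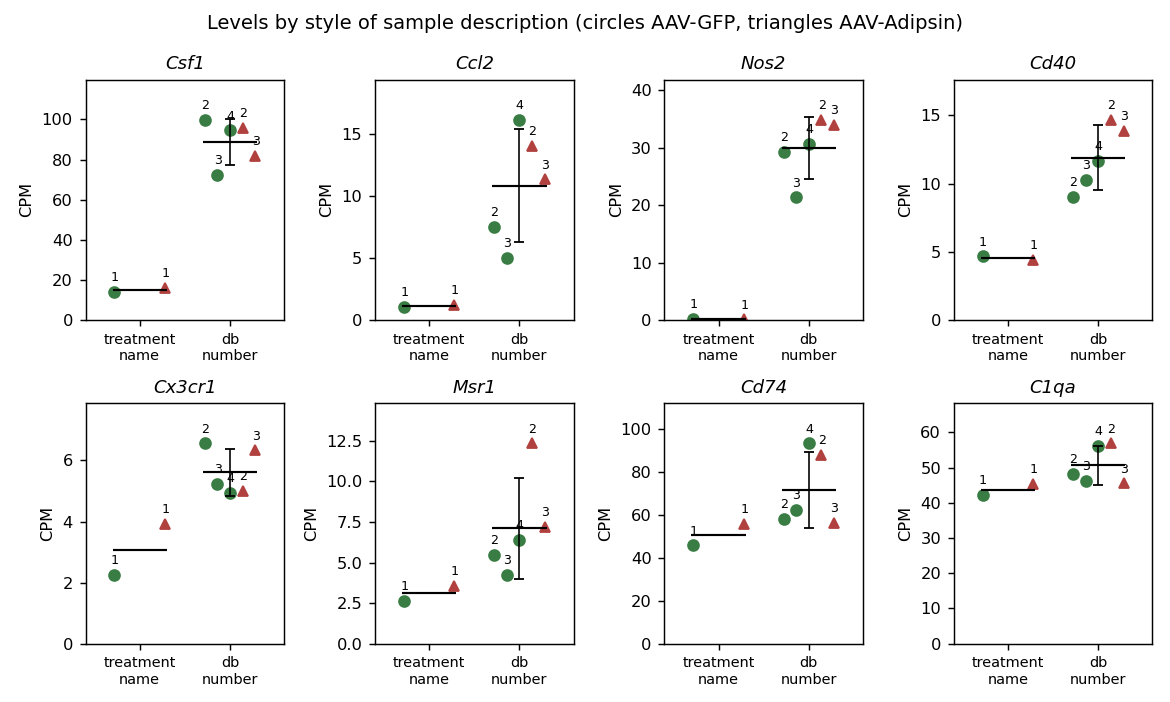
CPM by style of the sample description, for 3 genes that act on or mark inflamed macrophages (Csf1, Ccl2, Nos2), Cd40, 3 members and C1qa, with lines at the mean and bars at ±1 SD for the 5 db-numbered libraries. No gene shown overlaps between the styles. The margin is small for Cd74 and C1qa, at 55.6 and 45.35 CPM in AAV-Adipsin 1 against 56.0 and 45.5 CPM in AAV-Adipsin 3. Among the db-numbered libraries, circles (AAV-GFP) and triangles (AAV-Adipsin) overlap for Csf1 and Ccl2. For Nos2, Cd40 and Msr1 the triangles lie above the circles there. The share of all genes without overlap between the styles, or in either order of the treatments, was not taken.

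Markers of other cells were read beside these results. The summed level of 15 T and NK cell markers was 1.64 to 2.59 CPM in AAV-GFP and 1.22 to 2.63 CPM in AAV-Adipsin, with Cd3e, Nkg7, Gzma, Gzmb and Ncr1 at 0 counts in all libraries. Lck led this sum, at 0.855 to 2.20 CPM, and Cd4 reached 0.556 CPM in AAV-GFP 1. Trbc2 was highest in AAV-Adipsin 2, at 0.507 CPM against at most 0.276 CPM elsewhere. For 10 neutrophil markers the summed level was 0.292 to 1.41 CPM in AAV-GFP and 0.441 to 2.25 CPM in AAV-Adipsin, highest in AAV-Adipsin 2, with Ly6g, Mpo, Elane and Retnlg at 0. Csf3r stood at 1.27 CPM in AAV-Adipsin 2 against at most 0.467 CPM elsewhere. S100a9 was at 0.634 CPM in AAV-Adipsin 2 and 0.897 CPM in AAV-GFP 4. The 11 dendritic cell markers summed to 3.38 to 5.93 CPM in AAV-GFP and 3.65 to 5.20 CPM in AAV-Adipsin, highest in AAV-GFP 4, where Ccr7 stood at 1.62 CPM against at most 0.380 elsewhere, and Cd209a was at 0. Zbtb46 led the dendritic cell sum, at 2.02 to 3.33 CPM. The 10 B and plasma cell markers summed to 1.04 to 6.38 CPM in AAV-GFP and 1.35 to 3.03 CPM in AAV-Adipsin, highest in AAV-GFP 1, where Igkc and Jchain stood at 3.69 and 1.67 CPM. Ighm was instead highest in AAV-Adipsin 2, at 1.11 CPM. Cd22 was at 0.138 to 0.389 CPM in AAV-GFP and 0.425 to 0.803 CPM in AAV-Adipsin, an order without overlap that 1.16% of all genes tested showed. Of the 4 B and plasma cell markers tested, 0 passed and 2, Cd22 and Ighm, had an unadjusted edgeR p under 0.05, against 1.16% of all genes. Of the 5 mast cell markers, which summed to 10.1 to 15.8 CPM in AAV-GFP and 13.8 to 16.3 CPM in AAV-Adipsin, Kit alone, a receptor that other cells also carry, gave nearly all of the sum. Mcpt4, Tpsb2 and Ms4a2 were at 0.

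Markers of stromal, exocrine and other cells were read in the same way. Summed over 11 mesenchymal markers the level was 99.5 to 376 CPM in AAV-GFP and 171 to 232 CPM in AAV-Adipsin, highest in AAV-GFP 4, and 232 CPM in AAV-Adipsin 2. The 12 endothelial markers summed to 547 to 919 CPM in AAV-GFP and 685 to 821 CPM in AAV-Adipsin, also highest in AAV-GFP 4. Summed acinar markers, 12 genes of digestive enzyme cells, were highest in AAV-GFP 3 at 17891 CPM, next in AAV-Adipsin 2 at 12893 CPM and lowest in AAV-GFP 4 at 2700.5 CPM. In AAV-GFP 3, with the most acinar RNA, the 35 genes took 0.0295% of counts, and in AAV-GFP 4, with the least, they took 0.0443%. In AAV-Adipsin 2, next to AAV-GFP 3 in acinar RNA, they took 0.0677%. The 5 adipocyte markers summed to 2.07 to 6.47 CPM in AAV-GFP and 1.74 to 5.18 CPM in AAV-Adipsin, nearly all of it from Pck1, an enzyme of other tissues too, with Lep at 0. The sum of the 5 erythroid markers was 0.519 to 2.34 CPM in AAV-GFP and 0.933 to 2.79 CPM in AAV-Adipsin. The 10 endocrine markers summed to 189200 to 218590 CPM in AAV-GFP and 178980 to 223240 CPM in AAV-Adipsin. The part of these cells in the values of the 35 genes was not tested.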

How the data were processed

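Each library is messenger RNA of the islets of 1 mouse, prepared with a stranded kit per the labels' protocols. The deposited values are raw counts of reads per Ensembl gene, which the authors made with STAR on mm10 (GRCm38), per the submitters' processing notes. The sources used here do not name the program that counted reads, whether it used strand, or its gene models. Of 51912 rows, 51719 matched GENCODE mouse release 21 by identifier, and the 193 others stayed in as identifiers. Islets of 4 AAV-GFP and 3 AAV-Adipsin mice were compared with edgeR 4.0.16 (R 4.3.3): filterByExpr by group, TMM factors, a robust quasi-likelihood fit and test, and Benjamini-Hochberg adjustment over all 16504 genes kept, with a threshold of 0.05. CPM are counts per 1000000 of the library total times its TMM factor; log2 CPM has a prior count of 2. CPM per kb divides by the length of merged exons. Two-sided exact permutation tests of single genes used scipy 1.17.1, with 35 divisions of the libraries.

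Alternatives were DESeq2 1.42.0, its size factors in edgeR, no filter, a replicate block, description style as a batch or with both treatment-named libraries left out, and each library left out in turn. The scripts were tested on simulated data. Intervals for a count of 0 (3 counts) cover counting error only. The members, the 7 role groups and the 15 companion lists were chosen with earlier results of these data known. Members are named throughout. In the 4 companion lists of macrophage and MHC class II genes, those with the 5 smallest p values and the 3 highest levels per kb were named, except 1 gene that is not reported here. Gpnmb, Ciita and H2-Ea-ps were named outside this rule after their values were seen. In the cell marker lists, genes at 0, some of the genes that lead or move a sum, and Cd22 were named, also after their values were seen. Promoters are from a RefSeq table of GRCm38.p6.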

Additional observations from a re-analysis of the deposited data

Results flagged for a closer look

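Of 65 AAV-GFP groups of 4 values checked for a sample far from the rest, 8 had one. Chance flags a single group about 1 time in 20, but the 65 groups are genes of the same 4 mice and not independent. In 7 of the 8 the far sample was AAV-GFP 4. Fcer1g stood at 7.448 CPM there against 4.068 to 4.571 CPM in the other 3 libraries, Ctss at 39.07 against 22.38 to 24.62 CPM, and Cd68 at 18.24 against 9.135 to 10.08 CPM. Spi1 was at 2.034 against 1.623 to 1.688 CPM, and Itgam at 1.483 against 0.5454 to 0.6491 CPM. A pair of companion genes were also high in AAV-GFP 4: the growth factor chain Pdgfb at 33.28 against 17.66 to 18.53 CPM, and the monocyte attractant Ccl7 at 1.862 against 0.06491 to 0.3112 CPM. The remaining gene, Cd163, at 0.02223 CPM in AAV-GFP 1, rests on 1 count where the other 3 libraries had 0. Mesenchymal and endothelial markers were also highest in AAV-GFP 4, at 376 and 919 CPM in sum, and their part in these values was not tested.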

How the results depend on the processing

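With each library left out in turn, edgeR called 0 to 1 genes (92 to 570 at an unadjusted p under 0.05) and no member, the median log2 fold change of the members ran from -0.019 (without AAV-Adipsin 2) to 0.81 (without AAV-Adipsin 1), and 13 to 32 of the 33 members were above 0 at the same ends. DESeq2 called 3 genes over the whole table, edgeR without a filter on low counts called 0 (448 genes at an unadjusted p under 0.05) and edgeR on the db-numbered libraries alone called 0 (492 genes). No member was called under any setting tried. Without AAV-Adipsin 2, chosen here after the data were seen, 26 members in place of 30 were lower in the treatment-named pair. Leaving out AAV-Adipsin 2 changed the sign of 20 of the 33 members. Among the members whose sign turned when some library was left out, 20 had their lowest value without AAV-Adipsin 2, and their log2 fold change ran from -0.21 to 0.26 for Cd74, -0.25 to 0.30 for H2-Aa, -0.27 to 0.44 for H2-Ab1, -0.29 to 0.25 for H2-Eb1, -0.12 to 0.63 for Fcer1g, -0.030 to 0.81 for Fcgr3, -0.014 to 0.67 for Tyrobp, -0.084 to 1.035 for Ctss, -0.0095 to 1.18 for Adgre1, -0.066 to 0.83 for Cd68, -0.063 to 0.67 for Trem2, -0.14 to 0.66 for Cd14, -0.025 to 0.88 for Cybb, -0.10 to 0.89 for Lgals3, -0.0055 to 0.74 for Csf1r, -0.72 to 0.95 for Cd52, -0.019 to 1.05 for Cd53, -0.033 to 0.94 for Cd84, -0.996 to 1.65 for Itgam and -0.061 to 0.56 for Laptm5. For Cx3cr1, Csf2ra, Itgax and Mrc1, whose lowest value came without another library, it ran from -0.12 to 0.31 for Cx3cr1, -0.15 to 0.11 for Csf2ra, -0.022 to 0.28 for Itgax and -0.060 to 0.22 for Mrc1. Among the companion genes it ran from -0.30 to 0.49 for Igf1, -0.24 to 0.77 for Nos2, -0.23 to 0.97 for Ccl2, -0.24 to 0.034 for Flt3l, -0.22 to 0.44 for Tgfb1, -0.078 to 0.11 for C1qa, -0.51 to 0.34 for Csf1, -0.17 to 0.043 for Ctsl, -0.23 to 0.092 for Ifi30, -0.026 to 0.44 for Pdgfb, -0.36 to 2.11 for Ccl7, -0.39 to 0.78 for Cxcl12 and -0.19 to 1.76 for Gpnmb.

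Under the other settings the sign turned for 6 genes. H2-Eb1 was at 0.0017 with DESeq2's size factors in edgeR, 0.0021 with DESeq2 and 0.053 with description style as a batch, which also put Ifi30 at 0.014 and Csf1 at 0.044. On the db-numbered libraries alone Csf2ra was at 0.023, Csf1 at 0.011 and Flt3l at 0.11. Replicate numbers do not pair the samples throughout. Deviations from the group means correlated across genes at r = 0.66 for number 1, the treatment-named pair, whose libraries correlated best with each other. For numbers 2 and 3, r was -0.01 and 0.0071, and these libraries did not correlate best with their own number. With the replicate block 1 gene and 0 members were called, and H2-Eb1 was at 0.21, Mrc1 at -0.065, Csf2ra at 0.0084, Ifi30 at 0.068 and Csf1 at 0.091. Where a setting turned a sign, the cause was not tested. Depth limits Itgam, Cd52, Fcgr2b and Fcgr1 most among the tested members, whose lowest libraries held 9, 17, 28 and 30 counts, and Ccr2 and Cd163, which were not tested.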
